A study of Mus musculus with 2 samples.

Results

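The genes described here are 52 genes of the G2 phase and of mitosis, a list of symbols taken as given and found in full among the 27998 genes of 2 single-cell libraries. The first came from wild-type mice of the strain NOD.Foxp3-EGFP, the other from CD137 knockout mice of the strain NOD.Tnfrsf9-/-.Foxp3-EGFP. In both, Foxp3+ Tregs and CD8 T cells sorted from the pooled pancreatic islets of 6 mice were sequenced together with the Chromium 3′ v2 chemistry. Per the methods of the study these were prediabetic females of 9 to 10 weeks. Both strains carry the EGFP reporter of Foxp3, and in the knockout Tnfrsf9, the gene of the costimulatory receptor CD137, is lost in every cell type, so that an effect within a lineage and an effect through other cells cannot be told apart. With 1 pool per genotype nothing shows the spread between mice, no test was possible, and every interval given is a 95% interval for counting error only. Intervals for levels and log2 ratios take each transcript counted as a separate draw, so they leave out the spread between cells as well.

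A cell in G2 builds up the cyclin-dependent kinase CDK1 with its B and A cyclins, and their activity drives chromosome condensation, spindle assembly and entry into mitosis. The spindle assembly checkpoint holds the cell until each kinetochore, the protein plate at the centromere, is attached to the spindle. The anaphase-promoting complex then marks cyclin B and securin for destruction, the sister chromatids separate and cytokinesis follows. Transcripts of most of these genes accumulate only late in the cell cycle, which is why a cell rich in them is read as one in or near division. Many of their promoters carry a cell cycle genes homology region (CHR), bound by the DREAM and MuvB complexes, and CCAAT boxes, bound by NF-Y.

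Promoters of 44 of the 52 genes were held in the RefSeq table of build GRCm38.p6, from 250 bases before to 50 bases after the start. Those of Ccna2, Cdc25c, Aurkb, Tpx2, Dlgap5, Stmn1, Smc4 and Cdca2 were not among them. The CHR letters TTTGAA, on either strand, stood in 31 of 44 (70.5%) and in 18.1% of all 27025 promoters of the same length. The CCAAT letters, on either strand, stood in 34 of 44 (77.3%) against 37.9%, and 2 or more of them in 65.9% against 12.2%. Both motifs stood in 59.1% of the member promoters and in 7.12% of all promoters. The following 4 promoters, from 110 bases before to 25 bases after the start, belong to the members with the lowest knockout-to-wild-type ratio in CD8 T cells among those with at least 100 UMIs, a held promoter and a CHR match. They show how closely the elements are spaced. Each is written 5′ to 3′ on the strand of its gene, with every match to TTTGAA or CCAAT, or to their reverse complements TTCAAA and ATTGG, in capitals.
Ube2c, chr2:164769819-164769953, plus strand: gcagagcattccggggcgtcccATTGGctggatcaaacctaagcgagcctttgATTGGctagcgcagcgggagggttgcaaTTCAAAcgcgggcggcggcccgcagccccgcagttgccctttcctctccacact
Cdca8, chr4:124936893-124937027, minus strand: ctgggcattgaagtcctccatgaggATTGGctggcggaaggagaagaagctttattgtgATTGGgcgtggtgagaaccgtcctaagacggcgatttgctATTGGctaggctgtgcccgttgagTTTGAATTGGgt
Cdk1, chr10:69352888-69353022, minus strand: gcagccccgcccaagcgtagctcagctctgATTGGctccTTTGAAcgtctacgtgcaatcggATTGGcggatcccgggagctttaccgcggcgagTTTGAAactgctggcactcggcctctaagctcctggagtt
Cdc20, chr4:118437319-118437453, minus strand: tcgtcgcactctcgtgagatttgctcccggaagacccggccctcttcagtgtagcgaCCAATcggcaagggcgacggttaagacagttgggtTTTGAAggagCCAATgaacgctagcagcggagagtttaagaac
The CHR match began at base −29 from the start in Ube2c, at −18 in Cdc20 and at −71 and −15 in Cdk1. In Cdca8 it began at base 14 after the start and shared its last letter with a CCAAT match. Nek2 (−1.60), Nuf2 (−1.42) and Ccnb1 (−1.35) had lower CD8 log2 ratios than Cdca8 (−1.34), at least 100 UMIs and a held promoter, but no CHR match. A match says only that these letters stand in the window, and binding was not measured.

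The filter of the study kept 2714 wild-type and 2915 knockout cells, those that had 200 to 5000 genes and no more than 20% of their UMIs from mitochondrial genes. A UMI (unique molecular identifier) stands for 1 captured transcript. Cells with at least 2 UMIs of Cd8a and Cd8b1 and none of Cd4 and Foxp3 were taken as CD8 T cells, and cells with no UMI of Cd8a and Cd8b1 and at least 1 of Cd4, Foxp3, Il2ra and Ikzf2 as Tregs. This gave 891 wild-type and 1200 knockout CD8 T cells with medians of 6076 and 5275 UMIs, and 1552 and 1444 Tregs with medians of 4302 and 4308.5 UMIs. In each library 271 cells were in neither class, of which 22 (wild type) and 25 (knockout) were high in mitotic transcripts by the cut of 0.5% defined with the shares of high cells. The T cell gene Cd3e had a UMI in 92.1% to 97.3% of the cells of each class. Ikzf2, which the Treg rule uses, also had a UMI in 40.3% of wild-type and 28.1% of knockout CD8 T cells, whereas Foxp3, at 13.2% and 19.5% of Tregs, was sparse, so the Treg class rests mostly on Ikzf2 and Cd4. Tnfrsf9 itself fell from 337 to 110 CPM in Tregs and from 106 to 32.0 CPM in CD8 T cells, and was thus not at 0 in the knockout. CPM are UMIs of a gene or list per 1000000 UMIs of the class.

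As a sum, mitotic transcripts were less abundant in CD8 T cells of the knockout and slightly more abundant in its Tregs. In Tregs the role groups went in different directions. Summed over the 52 members, wild-type CD8 T cells held 5186 CPM (5133 to 5240) and those of the knockout 2974 CPM (2936 to 3012), 1.74-fold less (log2 ratio −0.80, −0.83 to −0.78). Tregs held 3873 CPM (3833 to 3914) and 4293 CPM (4248 to 4338), with 0.15 (0.13 to 0.17) as the log2 ratio. The order of the lineages turned with the genotype. In the wild type the module was higher in CD8 T cells than in Tregs, with a log2 ratio of 0.42 (0.40 to 0.44), and in the knockout it was lower, with −0.53 (−0.55 to −0.51). The CD8 ratio depended on the limit of 5000 genes per cell. With no such limit it was −0.57, no longer past 1.5-fold. The limit left out 65 wild-type and 55 knockout cells, and 59 (90.8%) and 52 (94.5%) of those were rich in mitotic transcripts by the cut of 0.5%.

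In CD8 T cells the genotypes differed in the share of cells rich in mitotic transcripts. The summed member level of these cells differed little, but the same members define the class. A cell was called high when the members made up at least 0.5% of its UMIs. There were 143 high cells among 891 wild-type CD8 T cells (16.05%, 13.7 to 18.6%) and 76 among 1200 knockout CD8 T cells (6.33%, 5.02 to 7.86%). The shares differed by −9.72 percentage points (−12.6 to −6.99). Among Tregs 122 of 1552 cells (7.86%, 6.57 to 9.31%) and 123 of 1444 cells (8.52%, 7.13 to 10.1%) were high, and the difference of 0.657 points was within counting error (−1.31 to 2.64). The class is a range cut from a score and not a cell type. Between 0.4% and 0.6% lay 22 wild-type and 9 knockout CD8 T cells, and 26 and 27 Tregs.

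**Figure D1:**
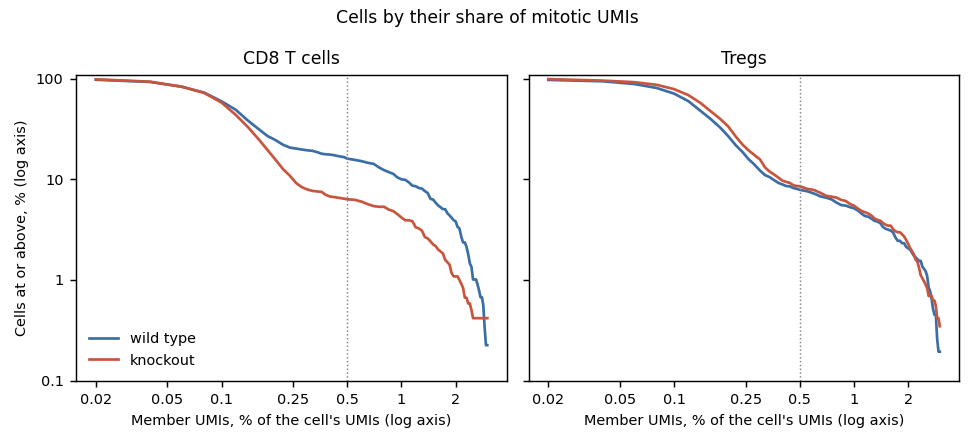
Share of cells (percent, log axis) whose member UMIs reach at least the share of the cell's UMIs on the log x axis, for wild-type and knockout CD8 T cells (left) and Tregs (right), with the cut of 0.5% dotted. The CD8 curves part above about 0.1% and stay apart to 2%. The Treg curves run close to each other from about 0.4% to 2%. Below 0.4% the knockout Tregs lie above, with 57.5% of cells at 0.14% against 48.0% in the wild type.

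High cells were the deepest cells of each class. Their median was 14911 UMIs in wild-type and 14682 in knockout CD8 T cells, against 5704 and 5202.5 in the other cells, and a median of 35 and 32.5 of the 52 members had a UMI in a high cell against 4 in another cell. The cut uses the members, so their levels on either side of it are a description. Within high cells the summed members reached 13877 CPM (wild type) and 13600 CPM (knockout), a log2 ratio of −0.03. The other CD8 T cells, at 1268 and 1211 CPM, were close as well, with −0.07. High cells thus carried 83.2% of all member UMIs of wild-type and 65.1% of those of knockout CD8 T cells. In Tregs the high cells stood at 14157 and 14453 CPM and the other cells at 1478 and 1629 CPM, log2 ratios of 0.03 and 0.14. When every cell was thinned to 2000 UMIs, the high share was 16.7% and 6.67% in CD8 T cells and 8.33% and 9.14% in Tregs, with 17, 16, 76 and 55 shallower cells left out.

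**Figure D2:**
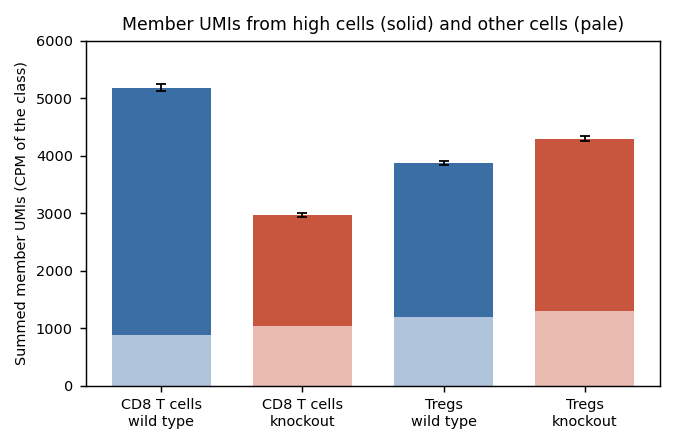
Summed UMIs of the 52 members in CPM of each class, divided into the part from high cells (solid) and the part from all other cells (pale), with the 95% counting interval of the sum. For CD8 T cells the solid part is 4312 CPM (wild type) and 1935 CPM (knockout), while the pale part is 874 and 1039 CPM.

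The make-up of the CD8 class also moved with the genotype. Ccr7 or Lef1, genes expressed by naïve T cells, had a UMI in 45.0% of wild-type and 68.8% of knockout CD8 T cells. Among those with neither, 98 of 490 wild-type and 44 of 374 knockout cells were high, a difference of −8.24 points (−13.0 to −3.31). After thinning, with the genes called on the thinned cells, it was −10.1 points (−14.4 to −5.73). Among CD8 T cells with a UMI of either gene the shares were 11.2% and 3.87%, a difference of −7.35 points (−11.0 to −4.21), but after thinning they were 3.09% and 2.26%, and −0.830 points (−3.85 to 1.26) was within counting error. The part of this change in make-up in the lower member level was not tested.

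Cells with a Tnfrsf9 UMI were high more often than the others at full depth, where they were also the deeper cells. In CD8 T cells the shares with and without it were 30.4% and 10.8% in the wild type and 15.5% and 5.10% in the knockout. After thinning, with Tnfrsf9 called on the thinned cells, they were 21.1% (13.4 to 30.6%) and 16.2% (13.7 to 19.0%) in the wild type, with overlapping intervals, and 18.9% (9.44 to 32.0%) and 6.10% (4.78 to 7.66%) in the knockout, with separate ones. The order of the Treg shares turned with thinning, from 10.9% and 4.79% to 5.88% and 9.56% in the wild type and from 10.7% and 7.58% to 5.96% and 9.74% in the knockout.

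Member by member, the CD8 decrease was broad and the Treg pattern was mixed. All 52 members had at least 20 UMIs over both libraries in each lineage. Of the 52, 37 (71.2%) were lower in knockout CD8 T cells by over 1.5-fold, beside 8.2% of all 11083 genes with at least 20 UMIs, and 0 were higher by that much, beside 13.7%. With no upper limit on genes per cell, 29 members were lower by over 1.5-fold in CD8 T cells. In Tregs 0 of 52 were lower by over 1.5-fold, beside 3.62% of 11428 genes, and 8 (15.4%) were higher, beside 6.93%. These Treg counts depended on the settings. With a stricter cell filter (500 to 4000 genes, at most 10% mitochondrial UMIs) 3 members were lower and 4 higher, and 5 were higher with every cell given the same weight. The shares of all genes were counted at the main settings only. Whether the members stay apart from all genes in Tregs under these other settings is therefore not shown. The median log2 ratio of the members was −0.99 in CD8 T cells and 0.13 in Tregs, and that of all genes was 0.04 in both. The counting interval lay below 0 for 45 members in CD8 T cells, beside 20.7% of all genes with at least 20 UMIs, and above 0 for 2, beside 24.6%. In Tregs it lay below 0 for 7 members, beside 11.8%, and above 0 for 22, beside 21.1%. For 15 members it lay below 0 in CD8 T cells and above 0 in Tregs, beside 1.39% of the 10726 genes with at least 20 UMIs in each lineage, and intervals of opposite sign in either order were found for 2.39% of these genes.

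The members lie on many chromosomes. In the GENCODE vM21 annotation of GRCm38, Mki67 (ENSMUSG00000031004) spans chromosome 7 from 135689784 to 135716361 on the minus strand, and Birc5 (ENSMUSG00000017716) spans chromosome 11 from 117849251 to 117855743 on the plus strand. Ube2c (ENSMUSG00000001403) lies on chromosome 2 from 164769898 to 164778822 on the plus strand, and Smc4 (ENSMUSG00000034349) on chromosome 3 from 69004738 to 69034623 on the plus strand. All UMIs were counted per gene, and the 3′ chemistry samples mainly the last exons and 3′ untranslated regions.

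**Figure D3:**
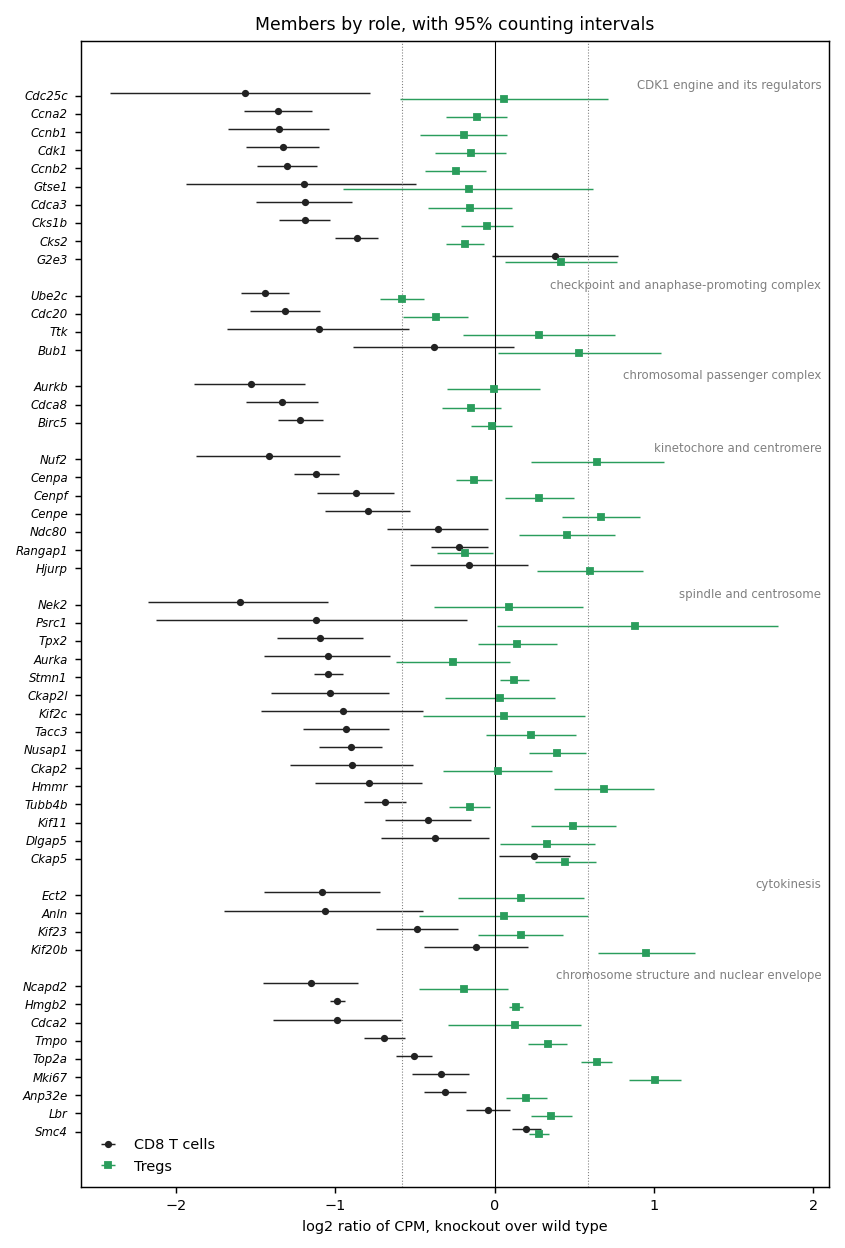
Log2 ratio of CPM, knockout over wild type, of each of the 52 members in CD8 T cells (circles) and Tregs (squares) with 95% counting intervals, grouped by role, and with dotted lines at 1.5-fold in either direction. In CD8 T cells 37 points lie left of the lower line and none right of the upper one, and in Tregs 8 lie right of the upper line, with Mki67 at 1.01 the farthest.

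Genes of the CDK1 engine were lower in CD8 T cells almost without exception. Summed over these 10 members, the level was 671 CPM in the wild type and 311 CPM in the knockout, a log2 ratio of −1.11 (−1.18 to −1.04), and 9 of 10 were past 1.5-fold. Cdk1, the mitotic kinase, went from 71.6 to 28.5 CPM (−1.33), and Cdc25c, the phosphatase that removes its inhibitory phosphates, had the lowest ratio of the group, −1.57, from 50 and 19 UMIs. The exception was G2e3, a ubiquitin ligase named for its G2 expression, at 13.3 and 17.2 CPM (0.38, −0.02 to 0.77). In Tregs the group was slightly lower in the knockout, at 453 and 414 CPM (−0.13, −0.20 to −0.07), with ratios from −0.25 for Ccnb2, a B cyclin, to 0.42 for G2e3.

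The 4 genes of the checkpoint and the anaphase-promoting complex had the lowest summed ratio of the 7 role groups in both lineages. In CD8 T cells their sum was 280 and 111 CPM (−1.33, −1.45 to −1.22), and in Tregs 200 and 149 CPM (−0.43, −0.53 to −0.32). Most of that came from Ube2c, the ubiquitin-conjugating enzyme of the anaphase-promoting complex, and from Cdc20, which activates the complex. Ube2c went from 179 to 66.0 CPM in CD8 T cells (−1.44, −1.59 to −1.29) and from 131 to 87.6 CPM in Tregs (−0.58, −0.72 to −0.45). Cdc20 went from 79.0 to 31.7 CPM (−1.32) and from 53.9 to 41.7 CPM (−0.37). The checkpoint kinase Bub1 was lowered least in CD8 T cells, at 10.5 and 8.09 CPM (−0.38, −0.89 to 0.12), and was higher in knockout Tregs, at 6.64 and 9.57 CPM (0.53, 0.02 to 1.04).

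All 3 members of the chromosomal passenger complex, which corrects faulty spindle attachments, were lower in CD8 T cells by over 1.5-fold. Their sum was 285 and 117 CPM (−1.29, −1.40 to −1.17). The kinase Aurkb went from 35.5 to 12.3 CPM (−1.53), and Birc5, which encodes survivin and which the study uses to mark proliferating cells, from 174 to 74.9 CPM (−1.22, −1.36 to −1.08). In Tregs none of the 3 differed beyond counting error. Birc5 stood at 118 and 117 CPM there (−0.02, −0.15 to 0.11).

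Kinetochore and centromere genes were less uniform. The 7 members summed to 407 and 241 CPM in CD8 T cells (−0.75, −0.84 to −0.67), with 4 past 1.5-fold. Nuf2, of the complex that binds spindle microtubules, went from 20.2 to 7.59 CPM (−1.42), whereas Ndc80, its partner in that complex, stood at 25.9 and 20.2 CPM (−0.36). Cenpa, the histone variant of the centromere and one of the most abundant members, went from 170 to 78.4 CPM (−1.12). Hjurp, the chaperone that deposits it, was at 17.7 and 15.8 CPM (−0.16, −0.53 to 0.21). In Tregs 3 of the 7 were higher by over 1.5-fold, Cenpe, a kinetochore motor, at 26.5 and 42.1 CPM (0.66), Nuf2 at 9.45 and 14.7 CPM (0.64) and Hjurp at 14.8 and 22.4 CPM (0.60), while Cenpa was slightly lower, at 159 and 145 CPM (−0.13, −0.24 to −0.02).

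The largest group, 15 genes of the spindle and centrosome, summed to 966 and 543 CPM in CD8 T cells (−0.83, −0.89 to −0.78), with 12 past 1.5-fold. Nek2, a centrosomal kinase, had the lowest ratio of all 52 members, −1.60 (−2.17 to −1.05), from 102 and 38 UMIs. Stmn1, which encodes the microtubule destabilizer stathmin, went from 398 to 193 CPM (−1.04). Ckap5, a microtubule polymerase, was the only member of the group above 0, at 42.1 and 49.9 CPM (0.25, 0.03 to 0.47). Tubb4b (−0.69) belongs to the beta tubulins, whose near-identical coding sequences can divide reads between genes. In Tregs the sum was 636 and 708 CPM (0.16, 0.10 to 0.21), and 2 genes were higher by over 1.5-fold, Hmmr, a spindle-associated hyaluronan receptor, at 16.2 and 26.0 CPM (0.68), and Psrc1 at only 19 and 32 UMIs (0.88, 0.01 to 1.78).

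Cytokinesis genes had the highest summed ratio of the 7 groups in both lineages, but the highest median ratio in neither. Their medians were −0.78 in CD8 T cells and 0.16 in Tregs. Chromosome structure genes had −0.51 in CD8 T cells, and kinetochore genes 0.45 in Tregs. Their 4 members summed to 98.4 and 66.3 CPM in CD8 T cells (−0.57, −0.74 to −0.40) and to 61.6 and 81.3 CPM in Tregs (0.40, 0.23 to 0.57). Ect2, the exchange factor that positions the cleavage furrow, went from 26.2 to 12.4 CPM in CD8 T cells (−1.08). Kif20b, a kinesin of late division, was at 22.2 and 20.5 CPM there (−0.12, −0.44 to 0.21), and was higher in knockout Tregs, at 15.9 and 30.7 CPM (0.95, 0.65 to 1.26). Most of the Treg rise of the group came from Kif20b, with 141 of 548 UMIs in the wild type and 250 of 663 in the knockout.

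Genes of chromosome structure and the nuclear envelope held the most UMIs and were split. The 9 members summed to 2480 and 1585 CPM in CD8 T cells (−0.65, −0.68 to −0.61). Hmgb2, a chromatin protein with 28.3% of all member UMIs of wild-type CD8 T cells, went from 1467 to 739 CPM (−0.99, −1.04 to −0.94), and Ncapd2, a condensin subunit, had the lowest ratio of the group, −1.15. Tmpo, which encodes lamina-associated proteins, went from 171 to 106 CPM (−0.70), and Top2a, the topoisomerase that untangles sister chromatids, from 196 to 138 CPM (−0.51, −0.62 to −0.39). Smc4, another condensin subunit, had the reverse direction, at 249 and 286 CPM (0.20, 0.11 to 0.29). Mki67, which encodes the Ki-67 protein that coats mitotic chromosomes and which the study also uses as a marker, was lowered much less than Birc5, at 76.7 and 60.6 CPM (−0.34, −0.52 to −0.16). In Tregs the 9 members summed to 1988 and 2392 CPM (0.27, 0.24 to 0.30), the largest rise in CPM of any role group. Mki67 had the highest ratio of all members there, at 52.6 and 106 CPM (1.01, 0.84 to 1.17), and Top2a went from 167 to 260 CPM (0.64, 0.54 to 0.74).

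A member was said to part from the rest when its log2 ratio differed from that of the other 51 summed by over log2 of 1.5, with an interval that left out 0. Among CD8 T cells 11 members did so. Ube2c, Aurkb, Nuf2 and Nek2 were lower than the rest, by −0.66, −0.73, −0.62 and −0.80 on the log2 scale. G2e3 (1.18), Smc4 (1.08), Ckap5 (1.06), Lbr (0.78), Kif20b (0.69), Hjurp (0.64) and Rangap1 (0.59) were higher than the rest, which for these 7 meant knockout-to-wild-type log2 ratios between −0.22 and 0.38. Lbr, the lamin B receptor, stood at 114 and 110 CPM (−0.04), and Rangap1, the GTPase activator of nuclear transport, at 76.3 and 65.4 CPM (−0.22). In Tregs 3 members parted, Ube2c downwards (−0.75, −0.89 to −0.61) and Kif20b (0.81, 0.50 to 1.12) and Mki67 (0.87, 0.71 to 1.04) upwards. Ube2c and Kif20b thus parted in the same direction in both lineages, which came from the same pair of libraries. With the trend on transcript length taken out, neither parted any longer in CD8 T cells, where they stood at −0.56 and 0.47 from the rest.

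The members above the rest in CD8 T cells were less confined to high cells than most. Of the wild-type UMIs of a member, a median of 90.5% lay in cells that were high by the other 51 members. For the 7 members above the rest this share ran from 52.1% for Rangap1 to 77.6% for Kif20b, and for the 4 below the rest from 94.7% to 98.0%. Anp32e at 61.6%, Tmpo at 66.2%, Psrc1 at 69.0% and Hmgb2 at 72.6% lay in the range of the first without parting. Across the 52 members the share and the CD8 log2 ratio had a Spearman correlation of −0.66 and a Pearson correlation of −0.73, a description over genes whose points share both libraries and the wild-type UMIs. High cells held 31.1% of all UMIs of wild-type and 14.2% of those of knockout CD8 T cells. A negative correlation follows in part from that fall alone and is no separate result. Outside high cells, where 39 of the 52 had at least 20 UMIs, 7 members were higher in the knockout beyond counting error and 12 lower, beside 20.7% and 15.2% of all genes in such cells. In Tregs, with 40 such members, 9 were higher and 3 lower, beside 20.1% and 11.1%. In CD8 T cells outside the high class, Smc4 went from 155 to 250 CPM (0.69, 0.57 to 0.82). Stmn1 went from 95.3 to 42.9 CPM (−1.15) and Hmgb2 from 536 to 326 CPM (−0.72) in the same CD8 T cells.

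Within high cells the members differed between the genotypes by less than 1.5-fold in most cases, though many differed beyond counting error. Each member was compared in cells that were high by the other 51, so that its own UMIs did not choose the cells. The median log2 ratio was −0.03 in CD8 T cells, with 3 members above 1.5-fold and 2 below, beside 12.6% and 6.44% of all genes in high cells. The counting interval lay above 0 for 7 and below 0 for 13 members, beside 12.3% and 6.56%. Mki67 went from 228 to 374 CPM of high cells (0.71, 0.52 to 0.91), Ckap5 from 75.7 to 125 CPM (0.73) and Bub1 from 33.0 to 51.5 CPM (0.64, 0.12 to 1.16). Aurkb went from 108 to 70.2 CPM (−0.63, −1.01 to −0.25), and Psrc1 had 20 and 5 UMIs. In Tregs the median was 0.05, with 5 above and 1 below 1.5-fold, beside 9.52% and 6.13%, and with intervals above 0 for 15 and below 0 for 12 members, beside 10.5% and 6.76%. Mki67 went from 248 to 446 CPM (0.84, 0.67 to 1.02), Kif20b from 51.7 to 104 CPM (1.01), Top2a from 718 to 1107 CPM (0.62) and Cenpe from 115 to 175 CPM (0.61), Psrc1 had 7 and 17 UMIs, and Ube2c went from 653 to 385 CPM (−0.76, −0.90 to −0.62). High cells of the knockout thus held more Mki67 transcripts than those of the wild type in both lineages, also in CD8 T cells, where the class as a whole held fewer.

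**Figure D4:**
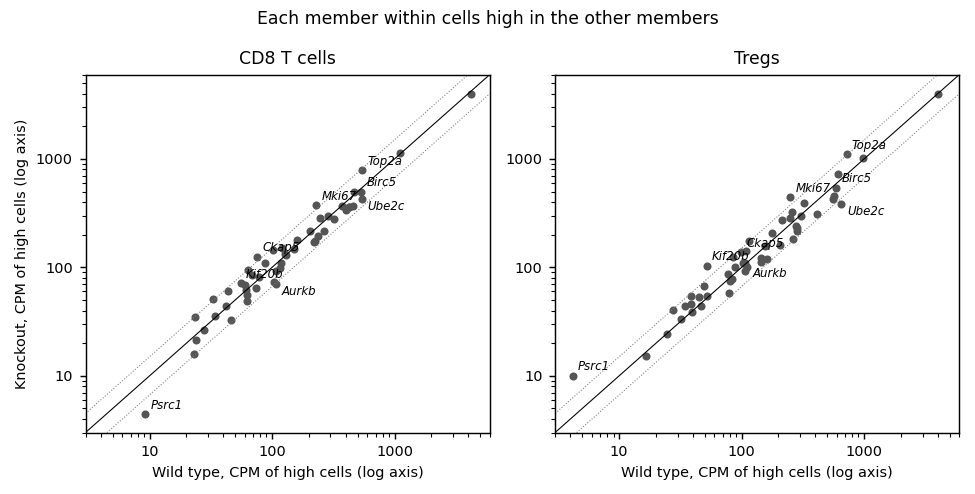
Level of each member within cells high in the other 51, in CPM of those cells, wild type on the x axis and knockout on the y axis (both log axes), for CD8 T cells (left) and Tregs (right), with the line of equality solid and 1.5-fold lines dotted. Most members lie near the line, Mki67 lies above the upper line in both lineages, and Ube2c lies below the lower line in Tregs.

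Transcript length moved with the ratios of the members, though not with every member that parted. Over all genes with at least 100 UMIs, longer transcripts had higher knockout-to-wild-type ratios in both lineages, with a Spearman correlation of 0.36 over 8581 genes in CD8 T cells and 0.35 over 8991 genes in Tregs. Over the 52 members the correlations were 0.50 and 0.65, and within high cells 0.56 and 0.66. Among the members that parted, G2e3 with a longest transcript of 6803 bases, Ckap5 with 6665 and Kif20b with 5564 were long, as was Mki67 with 10061, which parted in Tregs alone. Aurkb with 1950 and Ube2c with 2191 were short. The other 6, from Rangap1 with 3033 bases to Hjurp with 4878, lay between. Cenpf with 11130 bases, the longest of all members, and Cenpe with 7910 parted in neither lineage, with CD8 differences from the rest of −0.07 and 0.01. In Tregs Cenpf differed from the rest by 0.13 (−0.09 to 0.35). Cenpe lay above the rest there by 0.52 (0.28 to 0.77), only just short of log2 of 1.5. The 11 members over 4500 bases had a median CD8 ratio of −0.42, beside 0.25 for all genes of that length, and the 9 under 2000 bases −1.19, beside −0.17. In Tregs these medians were 0.49 beside 0.20, and −0.16 beside −0.07. Taking out the trend over all genes was decided on with the values in view. The CD8 module ratio then was −0.84, 39 members were lower by over 1.5-fold, and all 3 Treg members still parted by that much, as did 8 of the 11 CD8 members, with Ube2c, Hjurp and Kif20b lost. The knockout-to-wild-type log2 ratio of Mki67 in Tregs then was 0.77, and its difference from the rest was 0.66. The number of members higher by over 1.5-fold in Tregs went from 8 to 5. The part of transcript length in the remaining differences was not tested.

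**Figure D5:**
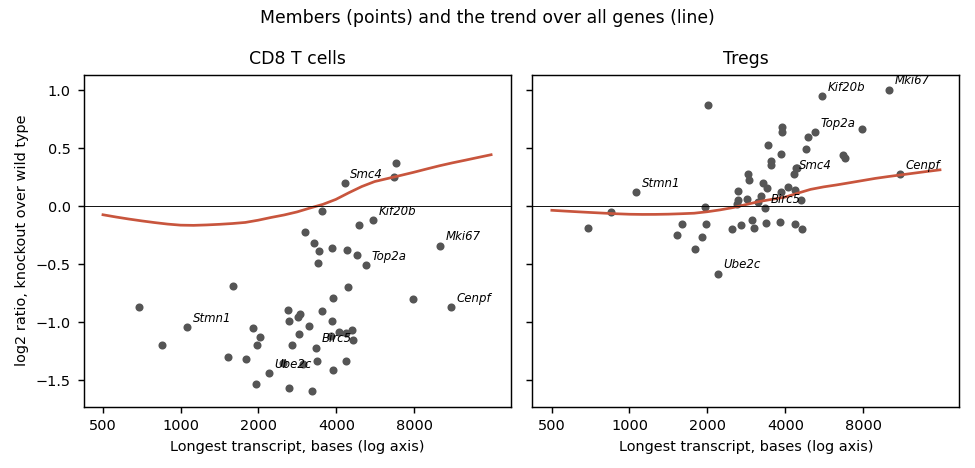
Log2 ratio of CPM, knockout over wild type, against the length in bases of the longest transcript (log axis) for the 52 members (points) in CD8 T cells (left) and Tregs (right), with the smoothed trend over all genes with at least 100 UMIs (line). Members lie below the line almost throughout in CD8 T cells and on both sides of it in Tregs, and in both panels the long transcripts of Mki67 and Kif20b lie above the shorter Ube2c.

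Other genes of division outside the list went the same way as the members. Of 60 further mitotic genes 59 were found, and their sum went from 2769 to 1533 CPM in CD8 T cells (−0.85, −0.89 to −0.82). By over 1.5-fold, 49 of 59 (83.1%) were lower, beside 8.2% of all genes, and 0 were higher, beside 13.7%. The lowest ratios were those of Fam64a, a regulator of the metaphase-to-anaphase transition (−1.72), and of the mitotic kinase Plk1, which went from 22.2 to 6.83 CPM (−1.70). The highest were those of the condensin subunit Ncapd3 (0.24) and the kinesin Kif18a (0.00). In Tregs the sum was 1888 and 1968 CPM (0.06). By over 1.5-fold, 1 gene (1.69%) was lower there, beside 3.62% of all genes, and 7 (11.9%) were higher, beside 6.93%. Of 48 S phase genes 26 (54.2%) were lower in CD8 T cells by over 1.5-fold and 0 higher, beside the same 8.2% and 13.7%. Their sum was 3289 and 2201 CPM (−0.58, −0.61 to −0.55). Exo1 (−1.31) and Cdc45 (−1.26), of DNA repair and of the replication helicase, were lowest, and Casp8ap2 (0.46) and the chromatin factor Atad2 (0.25) highest. In Tregs 0 of the 48 were lower, beside 3.62%, and 6 (12.5%) were higher, beside 6.93%. Their Treg sum was 2294 and 2673 CPM (0.22, 0.19 to 0.25), a larger log2 ratio than the 0.15 of the members. High cells held 1.93 member UMIs per S phase UMI in wild-type and 1.80 in knockout CD8 T cells, and 2.26 and 1.93 in Tregs.

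Transcripts of other cell types moved with the genotype as well. In CD8 T cells the 4 natural killer genes summed to 100 and 34.1 CPM (wild type and knockout), the 8 acinar genes to 69.1 and 30.98 CPM, and the 4 endothelial or stromal genes to 42.8 and 77.9 CPM. Within high CD8 T cells the natural killer genes were at 144 and 54.2 CPM. CD8 T cells can themselves express Eomes and Klra8, which are among these. The 4 erythroid genes were at or near 0, with no UMI of Hba-a2, Hbb-bs and Hbb-bt in any class. Myeloid (145 to 301 CPM), endocrine (10.7 to 23.7 CPM) and B cell genes (2.25 to 8.60 CPM) completed the lists. Their part in the mitotic difference was not tested. Cells with at least 2 UMIs of Cd8a and Cd8b1 and at least 2 of Cd4 and Foxp3, which may be doublets and fall in neither class, numbered 12 (wild type), 2 of them high, and 19 (knockout), 3 of them high.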

How the data were processed

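The authors deposited raw UMI counts per gene and barcode for 2 libraries, 1 per genotype. The submitters' processing notes and the file headers name Cell Ranger 7.0.0 and, for the notes, mm10 as the genome. The counting of intron reads is not given in the sources used here. The matrices hold 2804 wild-type and 2991 knockout barcodes, with 19904506 and 19639995 UMIs, and 16 barcodes stand in both, of which 15 and 16 passed the filter. Cells were filtered by the limits of the study's methods and assigned to lineages by the rule in the report. The split by Ccr7 and Lef1 was chosen after seeing the data, and a planned split by more marker genes is not reported here. No doublet caller was run and no doublets were removed.

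Counts were summed over the cells of a class and divided by its UMIs (CPM). Intervals are exact Poisson for CPM, exact binomial (Clopper-Pearson) for shares, Newcombe for share differences and exact conditional binomial for log2 ratios, all at 95% and covering counting error only. A gene counted as past the fold beyond 1.5 with at least 20 UMIs over both libraries. Transcript length was the longest transcript in GENCODE vM21 (GRCm38), and its trend was a lowess curve (span 0.3) over genes with at least 100 UMIs.

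Named members are the 8 with the most UMIs in wild-type CD8 T cells, those that part from the rest, Birc5 and Mki67, and the lowest and highest CD8 ratio of each role group. Others were named after their values were seen, among them Ndc80, Tubb4b, Cdk1, Cdc20, Cenpe, Hmmr, Psrc1, Anp32e and Ccnb2. Of the other lists the lowest 2 and highest 2 ratios with at least 100 UMIs are named. The members and lists were chosen with earlier results of these data known. Promoter sequences are the first window listed per gene in RefSeq. The intervals, fold counts and trend removal were tested on simulated data. Tools were Python 3.11.15, numpy 2.4.6, scipy 1.17.1, pandas 2.3.3, statsmodels 0.14.6, R 4.3.3 and edgeR 4.0.16, the last for TMM factors only.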

Additional observations from a re-analysis of the deposited data

Results flagged for a closer look

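Values that pointed in opposite directions in the 2 lineages, each beyond counting error, are given here as the log2 ratio of knockout over wild type in Tregs minus that in CD8 T cells. The difference between lineages was not tested, since there was 1 library per genotype. It was 0.95 for the summed members. Of the 52 members 15 met the criterion, all lower in CD8 T cells and higher in Tregs of the knockout, beside 1.39% of all genes with at least 20 UMIs in each lineage. Among spindle genes the difference was 2.001 for Psrc1, 1.47 for Hmmr, 1.30 for Nusap1, 1.17 for Stmn1, 0.91 for Kif11 and 0.70 for Dlgap5. Among kinetochore genes it was 2.06 for Nuf2, 1.46 for Cenpe, 1.15 for Cenpf and 0.81 for Ndc80. Among genes of chromosome structure and the nuclear envelope it was 1.35 for Mki67, 1.15 for Top2a, 1.12 for Hmgb2, 1.03 for Tmpo and 0.51 for Anp32e. Psrc1 rests on 29 and 15 UMIs in CD8 T cells and 19 and 32 in Tregs.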

How the results depend on the processing

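With 1 library per genotype no replicate could be left out. No paired analysis was possible because each genotype has 1 library and no test was made. Of 74 alternative values for 9 summary results, 42 stayed within the counting interval or within 1.5 times the count, and none of those beyond counting error changed sign. The CD8 module ratio of −0.80 was −0.57 with no upper limit on genes, −0.75 with lineage by the larger UMI sum, −0.86 with TMM factors, −0.71 with each cell given the same weight, −0.99 as the median of the members and −0.84 with the length trend removed. The Treg ratio of 0.15 was 0.049 with the stricter cell filter (500 to 4000 genes, at most 10% mitochondrial UMIs), 0.10 with TMM factors, 0.10 without the 5 most abundant members (Hmgb2, Smc4, Stmn1, Top2a and Cenpa) and 0.12 with the length trend removed. The CD8 over Treg ratio of 0.42 in the wild type was 0.21 with the stricter filter, 0.44 with no upper limit, 0.37 by the larger sum, 0.52 with TMM, 0.40 with equal weights, 0.55 as a median and 0.49 without the 5 members. In the knockout, −0.53 was −0.62 with the stricter filter, −0.29 with no upper limit, −0.37 with TMM, −0.45 with equal weights, −0.50 as a median and −0.42 without the 5 members. The difference in high cells was −5.82 points in CD8 T cells at a cut of 1%, and 4.09 points in Tregs at a cut of 0.25%. The Treg difference of 0.657 points was −0.04 with the stricter filter and −0.10 for cells with at least 10 members. Members lower by over 1.5-fold in CD8 T cells numbered 29 with no upper limit on genes, against 37. Members lower by over 1.5-fold in Tregs numbered 3 with the stricter filter and 1 each with TMM, equal weights and shared barcodes left out, against 0. Those higher in Tregs numbered 4 with the stricter filter, 5 with equal weights and 5 with the length trend removed, against 8. Removing the length trend and all alternatives for the last count were chosen after seeing the data. For the members that part from the rest, all 84 alternative values kept their sign, but 7 of the 11 CD8 members fell short of 1.5-fold under at least 1 of their 6 alternatives, Hjurp under 4, Nuf2 (as low as −0.20), Ube2c, Rangap1 and Kif20b under 2 each, and Aurkb and Nek2 under 1 each. The 3 Treg members stayed past it. In all these the cause was not tested beyond what each setting changes. One pool per genotype limits every comparison to these libraries, and counting intervals are too narrow for the spread between mice. Those for CPM and log2 ratios also leave out the spread between cells.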

Other observations

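The 65 wild-type and 55 knockout cells above 5000 genes were rich in members by the cut of 0.5% in 59 (90.8%, 81.0 to 96.5%) and 52 (94.5%, 84.9 to 98.9%) cases. By the lineage rule 26 and 28 of them were CD8 T cells and 18 and 15 Tregs. In high cells Malat1, a nuclear noncoding RNA, reached 7030 and 8035 CPM in CD8 T cells of the wild type and the knockout, against 20591 and 23837 CPM in the other cells. In Tregs it was 9020 and 7756 CPM in high cells, against 28003 and 30341 CPM in the others.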
